A study of Homo sapiens with 12 samples.

Results

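The MHC class I genes described here are the 9 genes of the count table named HLA-B, HLA-C, HLA-E, B2M, TAP1, TAP2, TAPBP, PSMB8 and PSMB9, out of 58735 genes in all. They were chosen by name, and all 9 were among the 18560 genes with enough counts to be tested. The RNA came from LX-2, an immortal line of human hepatic stellate cells, the cells that lay down scar matrix in the injured liver. There were 4 groups with 3 libraries each. SiNAT10_TGFB cells were transfected with siRNA against NAT10 and, 48 h later, given TGF-β1 at 5 ng/ml for 24 h. TGFB cells were given TGF-β1 alone at the same dose and time. SiNAT10 cells were given the siRNA alone, with no harvest time in the labels. The con cells were untreated. NAT10 encodes an RNA cytidine acetyltransferase, and TGF-β1 is a cytokine that drives stellate cells to become matrix-producing myofibroblasts. None of the 4 groups is labelled as given a control siRNA, so transfection and loss of NAT10 cannot be told apart in any comparison below. Nothing says that the replicates are separate cultures, and the spread behind each p-value may be technical.

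MHC class I molecules carry short peptides from inside the cell to its surface, where CD8 T cells read them and natural killer cells sense their presence. Proteins are cut by the proteasome, in which the interferon-inducible subunits PSMB8 and PSMB9 can replace constitutive ones. TAP1 and TAP2 form the transporter that pumps the peptides into the endoplasmic reticulum, and TAPBP (tapasin) holds an empty class I molecule beside it. A class I molecule is a heavy chain, here from HLA-B, HLA-C or HLA-E, bound to the light chain β2-microglobulin from B2M. Most of these genes are induced by interferons, and NLRC5 is a transactivator of many of their promoters. In the injured liver, stellate cells can present antigen to T cells.

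The library totals ran from 25877008 to 35132582 counts. NAT10 stood at 19.2, 15.8 and 20.7 CPM in the SiNAT10_TGFB libraries, against 67.8, 65.6 and 67.5 CPM in the TGFB libraries. In the SiNAT10 libraries it stood at 19.5, 18.5 and 17.9 CPM, against 62.9, 68.8 and 69.9 CPM in the con libraries, so all 12 libraries matched their siRNA labels. CPM are counts scaled to the library total of the genes tested, scaled between libraries by TMM. The summed level of 10 markers of stellate cells and myofibroblasts was 4160 to 4330 CPM in SiNAT10_TGFB, 11800 to 12500 in TGFB, 3120 to 3320 in SiNAT10 and 5300 to 5620 in con. Of these markers LRAT was at 0 in every library, and DES had at most 8 counts in any. Markers of leukocytes summed to 3.69 to 5.11 CPM in SiNAT10_TGFB, 1.27 to 2.5 in TGFB, 4.15 to 5.56 in SiNAT10 and 3.12 to 3.83 in con. The 5 hepatocyte markers summed to at most 0.343 CPM. Cholangiocyte markers summed to 5.27 to 5.72 CPM in SiNAT10_TGFB, 3.92 to 4.57 in TGFB, 3.29 to 4.36 in SiNAT10 and 2.16 to 2.6 in con, and endothelial markers to 1.77 to 2.26 CPM in SiNAT10_TGFB, 1.21 to 1.79 in TGFB, 1.32 to 2.3 in SiNAT10 and 1.33 to 1.91 in con. KRT7 of the cholangiocyte list passed in SiNAT10 against con (adjusted p = 0.001), in TGFB against con (adjusted p = 0.000235) and in SiNAT10_TGFB against SiNAT10 (adjusted p = 0.0311), and PECAM1 of the endothelial list in both siRNA comparisons (adjusted p = 0.0133 and 0.00329, by edgeR). CD14, the 1 leukocyte marker tested, was higher in SiNAT10_TGFB against TGFB (log2 fold change 1.40, adjusted p = 1.31e-05 by edgeR). In TGFB against con it was lower (−1.01, adjusted p = 0.00168). The part of such cells in the results was not tested.

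Promoters of class I heavy chains and B2M are known for short elements that answer to interferon and NF-κB, and for a Y box, which belongs to the module on which NLRC5 acts. Sequences upstream of the transcription start are shown as a description, and were chosen with the changes of the genes known. RefSeq windows of 250 bases (GRCh38.p14) were found for 8 of the 9 genes, all but HLA-E. The stretches of 156 bases shown for HLA-B (chr6:31357224-31357379, minus strand), HLA-C (chr6:31272137-31272292, minus strand) and B2M (chr15:44711317-44711472, plus strand) run from 200 to 45 bases before the RefSeq start. For TAP1 (chr6:32853816-32853845, minus strand), TAP2 (chr6:32838781-32838810, minus strand) and TAPBP (chr6:33314079-33314108, minus strand), 30 bases around the interferon elements are shown. The TAP1 and TAPBP stretches lie inside the longer gene models of GENCODE 29. The interferon elements searched were GAANNGAAA and a longer form, a pair of GAAA with any 2 bases between them, and the copies of both can overlap. Each line reads 5′ to 3′ on the gene's strand, and capitals mark matches, on either strand, to interferon elements, to κB or to the Y box CTGATTGG.
HLA-B: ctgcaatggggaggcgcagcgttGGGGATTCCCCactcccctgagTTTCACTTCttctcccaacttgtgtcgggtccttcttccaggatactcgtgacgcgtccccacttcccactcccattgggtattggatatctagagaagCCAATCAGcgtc
HLA-C: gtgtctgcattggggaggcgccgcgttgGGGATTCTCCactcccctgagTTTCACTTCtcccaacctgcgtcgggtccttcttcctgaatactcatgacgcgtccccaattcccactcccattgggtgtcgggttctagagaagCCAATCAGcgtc
B2M: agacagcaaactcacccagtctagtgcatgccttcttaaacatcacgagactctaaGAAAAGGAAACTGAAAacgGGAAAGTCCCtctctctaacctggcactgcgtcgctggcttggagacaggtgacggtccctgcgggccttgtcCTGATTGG
TAP1: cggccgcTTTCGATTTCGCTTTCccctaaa
TAP2: tggctgggGAAGCGAAAGCGAAAgctgccc
TAPBP: ccctttggagGAAAGTGAAAGTGAAAggag
HLA-B, HLA-C and B2M each held an interferon element, a κB match and a Y box in the window, with the Y box between 45 and 56 bases before the start. TAP1, TAP2 and TAPBP held the interferon element, and TAP1 and TAPBP also κB, with no Y box of these letters. The 250 bases before PSMB8 and PSMB9 matched none of the 4 motifs, and bases further upstream of PSMB8 were not searched. The far end of the PSMB9 window overlaps that of the TAP1 window, which lies on the other strand. The rest of the TAP1 window, with its interferon elements and κB match, thus lies further upstream of PSMB9. Among 35116 promoter windows of 250 bases, 3.02% held the longer interferon element, 6.56% GAANNGAAA, 9.96% κB and 3.81% the Y box. These matches describe the letters and no binding was measured. Whether they bear on the direction in which any gene moved was not tested.

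All 9 genes were expressed in each of the 4 groups, over a wide range. Per length, as CPM per kilobase of exon (FPKM, with the TMM scale), con cells held 180.3 ± 8.2 of HLA-B, 144.2 ± 3.54 of B2M, 101.3 ± 5.71 of HLA-C and 98.02 ± 1.52 of HLA-E (SD, n = 3). On this scale HLA-C and HLA-E did not differ beyond their spread. TAPBP followed at 38.57 ± 2.02, then TAP1 at 15.62 ± 0.672 and PSMB8 at 14.11 ± 0.687, and last PSMB9 at 8.462 ± 0.0565 and TAP2 at 6.136 ± 0.485. The heavy chains and B2M were thus well above the transporter and the immunoproteasome subunits. In SiNAT10_TGFB cells the highest were HLA-B at 300.9 ± 14.8 and B2M at 260.8 ± 23.1, and the lowest was TAP2 at 4.843 ± 0.0575. The lengths join all annotated exons of a gene, 6079 bases for B2M and 3072 for PSMB9, while the longest coding transcripts have 1705 and 792, and the order depends on this. Per kilobase of the longest coding transcript, con cells held 514.1 ± 12.6 CPM of B2M, 355.5 ± 16.2 of HLA-B, 163.4 ± 9.2 of HLA-C and 112.1 ± 1.74 of HLA-E. TAPBP then had 51.9 ± 2.71, PSMB9 32.8 ± 0.218, PSMB8 31.3 ± 1.52, TAP1 25.4 ± 1.09 and TAP2 6.9 ± 0.545. On that scale HLA-C was above HLA-E, and PSMB8 and PSMB9 were above TAP1. Reads of the variable heavy chain genes were counted against the hg38 alleles, which touches comparisons between these genes and not between groups. Raw counts per library ran from 22885 to 46711 for B2M and from 481 to 899 for PSMB9, the gene with the fewest.

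The comparison of SiNAT10_TGFB with TGFB cells asks what the NAT10 siRNA changed in cells given TGF-β1. The heavy chains and the light chain rose, the transporter and tapasin fell, and the immunoproteasome subunits did not pass the test. Tapasin's call is lost when a trend over GC content is removed (0.07, adjusted p = 0.246 by edgeR). B2M rose most, by 2.01-fold, and TAP1 fell most, by 33.9%. By edgeR's quasi-likelihood test, 4 of the 9 genes were higher and 3 lower at an adjusted p under 0.05. Of all genes tested, 53.1% passed, 26.3% as higher and 26.8% as lower, so the number that moved does not set the 9 genes apart. Groups did not overlap for the same counts, 4 on the higher and 3 on the lower side, as for 30.2% and 30.4% of all genes. Their median log2 fold change was 0.16, against 0.01 for all genes. In bulk RNA, fewer cells of a kind and less RNA per cell cannot be told apart.

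**Figure D1:**
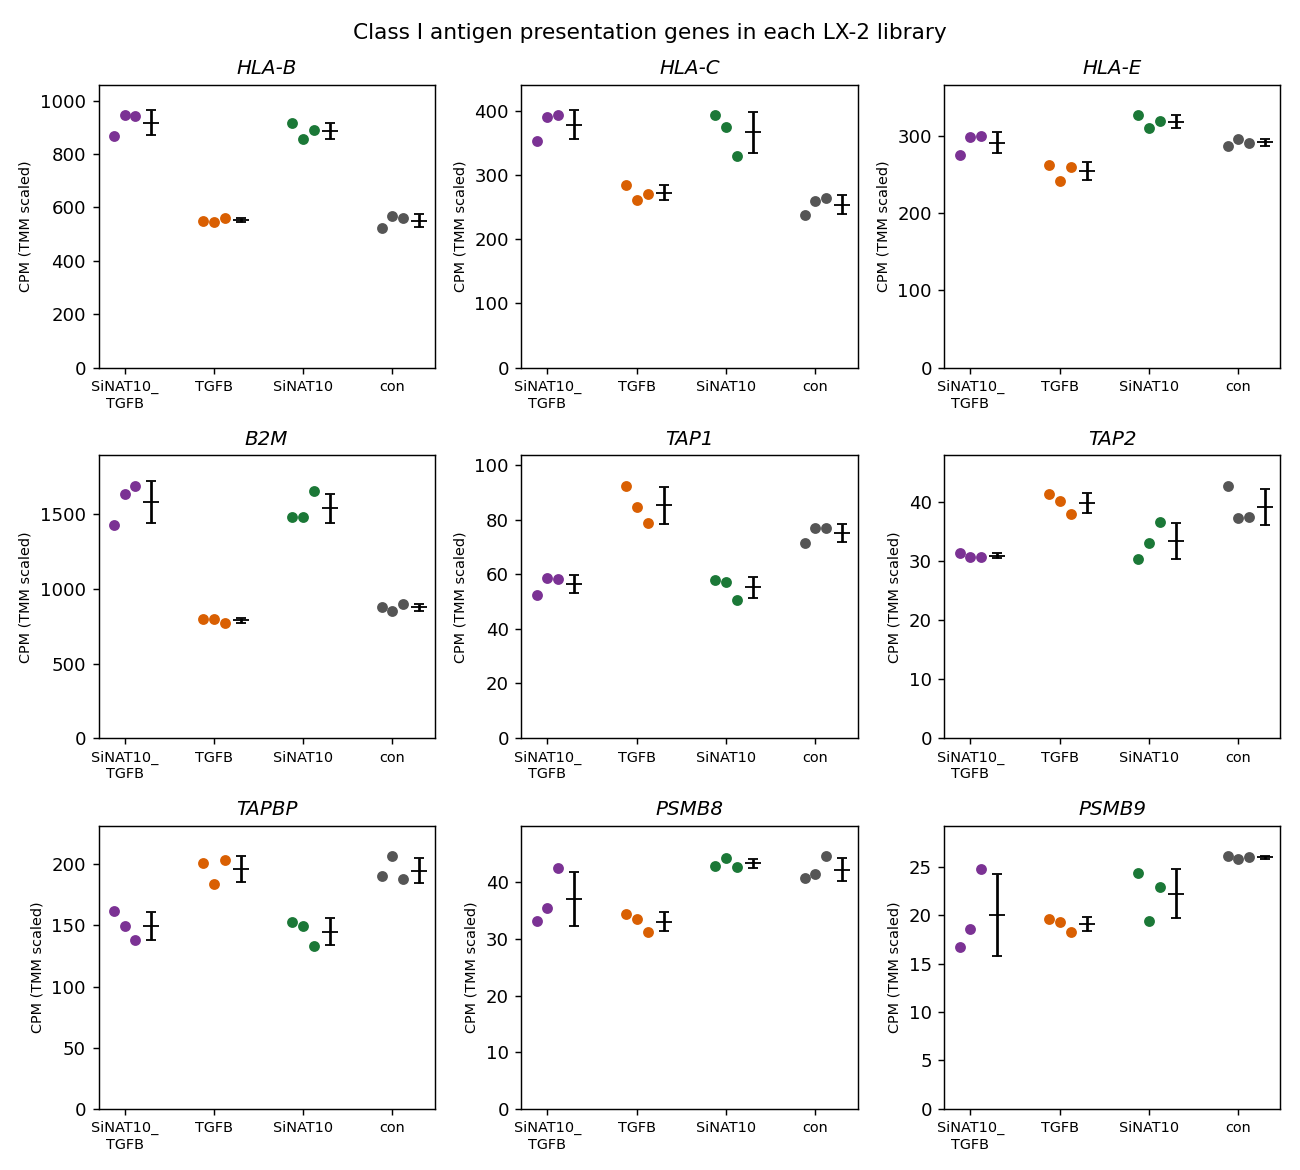
Level of each of the 9 genes in every library, in CPM with TMM scaling on a linear axis from 0, with 1 point per library and the mean and SD of 3 libraries beside the points. HLA-B, HLA-C and B2M stand higher in both siRNA groups, and TAP1 and TAPBP lower, while PSMB8 and PSMB9 are lower in TGFB than in con cells.

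B2M (ENSG00000166710; chromosome 15, 44711487 to 44718877) stood at 1426, 1639 and 1692 CPM in SiNAT10_TGFB cells, against 800.1, 798.5 and 772.4 CPM in TGFB cells. The groups lie far apart, and the spread is wider in the siRNA group. Its log2 fold change was 1.00 (SE 0.059, adjusted p = 1.64e-12 by edgeR). Without TGF-β1 the gene behaved alike, at 1482, 1484 and 1655 CPM in SiNAT10 cells, against 875.9, 855.4 and 898.4 CPM in con cells. That difference was 0.81 on the log2 scale (SE 0.059, adjusted p = 6.96e-11 by edgeR). The B2M gene does not lie in the MHC, and its light chain is shared by all classical and many class I-like heavy chains.

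HLA-B (ENSG00000234745; chromosome 6, 31269491 to 31357188), one of the classical heavy chains that present to CD8 T cells, had 865.9, 945.5 and 942.7 CPM in SiNAT10_TGFB cells, against 549.5, 544.6 and 559.4 CPM in TGFB cells. Every siRNA library was above every library without it. The log2 fold change was 0.74 (SE 0.052, adjusted p = 4.29e-11 by edgeR). SiNAT10 cells held 916.8, 856.6 and 890.7 CPM, against 521.6, 568.6 and 559.9 CPM in con cells, a log2 change of 0.69 (SE 0.052, adjusted p = 1.44e-10 by edgeR). The level of HLA-B was thus about the same in both siRNA groups and about the same in both others.

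HLA-C (ENSG00000204525; chromosome 6, 31268749 to 31272130), the classical heavy chain that is also the main ligand of killer cell immunoglobulin-like receptors, moved in the same way by less. It had 352.7, 389.7 and 392.9 CPM in SiNAT10_TGFB cells, against 284.7, 261.5 and 270.9 CPM in TGFB cells, a log2 change of 0.47 (SE 0.067, adjusted p = 2.22e-06 by edgeR). Among SiNAT10 libraries HLA-C had 393.1, 375.5 and 330.3 CPM, against 237.5, 260.1 and 264.1 CPM in con cells, a log2 change of 0.53 (SE 0.067, adjusted p = 5.07e-07 by edgeR). Neither pair of groups overlapped. HLA-B and HLA-C resemble one another, and counting can move reads between them. With their counts summed into 1 row, the log2 fold change was 0.65 in SiNAT10_TGFB against TGFB and 0.64 in SiNAT10 against con.

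HLA-E (ENSG00000204592; chromosome 6, 30489467 to 30494205), a nonclassical heavy chain that shows leader peptides of other class I chains to natural killer cell receptors, moved least of the 3. It had 275.3, 298.5 and 300.2 CPM in SiNAT10_TGFB cells, against 262.6, 241.5 and 259.6 CPM in TGFB cells, a rise of 0.19 on the log2 scale (SE 0.055, adjusted p = 0.00479 by edgeR). In SiNAT10 cells its values were 326.7, 309.9 and 319.1 CPM, against 287.5, 296.5 and 290.8 CPM in con cells. Those groups did not overlap, but the log2 difference of 0.13 did not pass the test (SE 0.055, adjusted p = 0.0557 by edgeR). It passed under 9 of the 23 alternatives run, among them DESeq2 with an adjusted p of 0.0365.

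TAP1 (ENSG00000168394; chromosome 6, 32845209 to 32853978) encodes one of the subunits of the peptide transporter. It had 52.54, 58.47 and 58.32 CPM in SiNAT10_TGFB cells, against 92.44, 84.56 and 78.91 CPM in TGFB cells, a log2 change of −0.60 (SE 0.075, adjusted p = 4.86e-07 by edgeR). SiNAT10 cells held 57.88, 57.02 and 50.69 CPM, against 71.34, 76.92 and 76.93 CPM in con cells, a log2 change of −0.44 (SE 0.075, adjusted p = 2.99e-05 by edgeR). No siRNA library reached the lowest library without siRNA. A part of its exons, 9.49%, lies opposite the antisense transcript PSMB8-AS1, which had 6 to 45 counts per library. With those counts added, the log2 fold change was −0.59 in SiNAT10_TGFB against TGFB and −0.43 in SiNAT10 against con.

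TAP2 (ENSG00000204267; chromosome 6, 32821833 to 32838780), the partner subunit, had 31.37, 30.71 and 30.75 CPM in SiNAT10_TGFB cells, against 41.46, 40.11 and 37.97 CPM in TGFB cells. The log2 fold change was −0.36 (SE 0.083, adjusted p = 0.000723 by edgeR). In SiNAT10 cells it had 30.43, 33.13 and 36.58 CPM, against 42.78, 37.36 and 37.48 CPM in con cells, a log2 change of −0.23 (SE 0.083, adjusted p = 0.0215 by edgeR). This smaller difference was lost without con replicate 1 (−0.17, adjusted p = 0.131 by edgeR), without SiNAT10 replicate 1 (−0.17, 0.106) and without SiNAT10 replicate 2 (−0.23, 0.0582). It was also lost with library size alone as the scale (−0.18, 0.083) and with upper-quartile scaling (−0.20, 0.0504). Of its exon bases, 32.3% are shared with the annotated gene AL669918.1, which has 0 counts in every library.

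TAPBP (ENSG00000231925; chromosome 6, 33299694 to 33314387) had 161.6, 149.2 and 138.4 CPM in SiNAT10_TGFB cells, against 201.4, 184.0 and 203.8 CPM in TGFB cells, a log2 change of −0.39 (SE 0.069, adjusted p = 4.74e-05 by edgeR). SiNAT10 cells showed 153.1, 149.2 and 132.8 CPM, against 190.3, 206.7 and 188.0 CPM in con cells, a log2 change of −0.43 (SE 0.069, adjusted p = 1.71e-05 by edgeR). The groups did not overlap, but this decrease rests on the treatment of GC content. With the trend over GC content taken out of every library, the log2 fold change was 0.07 in SiNAT10_TGFB against TGFB (adjusted p = 0.246 by edgeR) and 0.02 in SiNAT10 against con (0.783).

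GC content bears on the 9 genes because they differ in it. Among 13039 well-counted genes, the median log2 fold change of SiNAT10_TGFB against TGFB was −0.49 in the 1939 genes with a GC content of 60% or more, and 0.18 in the 2002 genes under 42%. In SiNAT10 against con the medians were −0.47 and 0.15. TAPBP, at 62.1% GC, fell about as much as other genes of high GC. HLA-C at 61.6%, HLA-E at 61.5% and HLA-B at 59.7% were higher although the median gene of similar composition was lower, and with the trend removed their log2 fold changes in SiNAT10_TGFB against TGFB became 0.92, 0.64 and 1.10. B2M, at 41.2%, went to 0.82 with the trend removed. TAP1, at 54.6%, still fell, at −0.55 (adjusted p = 2.97e-08 by edgeR), and so did TAP2, at 53.6%, with −0.38 (adjusted p = 0.000279). In SiNAT10 against con the values with the trend removed were 1.05 for HLA-B, 0.96 for HLA-C, 0.56 for HLA-E, 0.61 for B2M, −0.41 for TAP1 and −0.26 for TAP2, each with an adjusted p of 0.00886 or less by edgeR. Whether the trend arose in the cells or in the libraries was not tested.

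PSMB8 (ENSG00000204264; chromosome 6, 32840717 to 32844703), which replaces the constitutive subunit PSMB5, had 33.21, 35.47 and 42.52 CPM in SiNAT10_TGFB cells, against 34.49, 33.46 and 31.26 CPM in TGFB cells. The groups overlapped, and the log2 difference of 0.16 did not pass the test (SE 0.086, 95% interval −0.004 to 0.333, adjusted p = 0.114 by edgeR). Without SiNAT10_TGFB replicate 1, the difference was 0.24 (adjusted p = 0.035 by edgeR). SiNAT10 cells had 42.96, 44.35 and 42.74 CPM, against 40.81, 41.40 and 44.63 CPM in con cells, a difference of 0.04 with a 95% interval of −0.13 to 0.20 (adjusted p = 0.746 by edgeR). Of its exon bases, 20.62% lie opposite PSMB8-AS1, and summing their counts changed no call.

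PSMB9 (ENSG00000240065; chromosome 6, 32844136 to 32859585), which replaces PSMB6, had 16.69, 18.62 and 24.74 CPM in SiNAT10_TGFB cells, against 19.61, 19.35 and 18.23 CPM in TGFB cells. The siRNA libraries lie on both sides of the others, and the log2 difference was 0.07 (SE 0.117, adjusted p = 0.647 by edgeR). SiNAT10 cells had 24.39, 19.42 and 22.91 CPM, against 26.11, 25.80 and 26.08 CPM in con cells. Those groups did not overlap, yet the difference of −0.22 did not pass (SE 0.115, adjusted p = 0.106 by edgeR). It passed without SiNAT10 replicate 1 (−0.30, adjusted p = 0.048), without SiNAT10_TGFB replicate 3 (−0.23, 0.0464) and with the GC trend removed (−0.27, 0.038).

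In the comparison of SiNAT10 with con cells, which asks about the siRNA without TGF-β1, 3 of the 9 genes were higher, 3 lower and 3 did not pass. Of all genes, 52.8% passed, 26.4% in each direction. Groups did not overlap for 4 genes on the higher and 4 on the lower side, as for 28.9% and 28.8% of all genes. The median log2 fold change of the 9 genes was 0.04, against 0.02 for all genes. HLA-B, HLA-C and B2M made up the higher ones, and TAP1, TAP2 and TAPBP the lower ones. The test of the difference between both siRNA effects, the interaction, passed for 0 of the 9 genes by edgeR, and for 3.85% of all genes, 1.94% as higher and 1.91% as lower. The smallest p of the 9 was that of B2M, whose siRNA effect was 0.19 larger on the log2 scale with TGF-β1 (SE 0.083, 95% interval 0.029 to 0.354, adjusted p = 0.253 by edgeR). Without SiNAT10_TGFB replicate 1 this difference was 0.26 (adjusted p = 0.0497). Of the others, TAP1 with −0.36 to 0.06 and PSMB9 with −0.03 to 0.62 had intervals that were wide against their siRNA effects. That of HLA-B was narrower, at −0.10 to 0.19 against siRNA effects of 0.74 and 0.69.

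**Figure D2:**
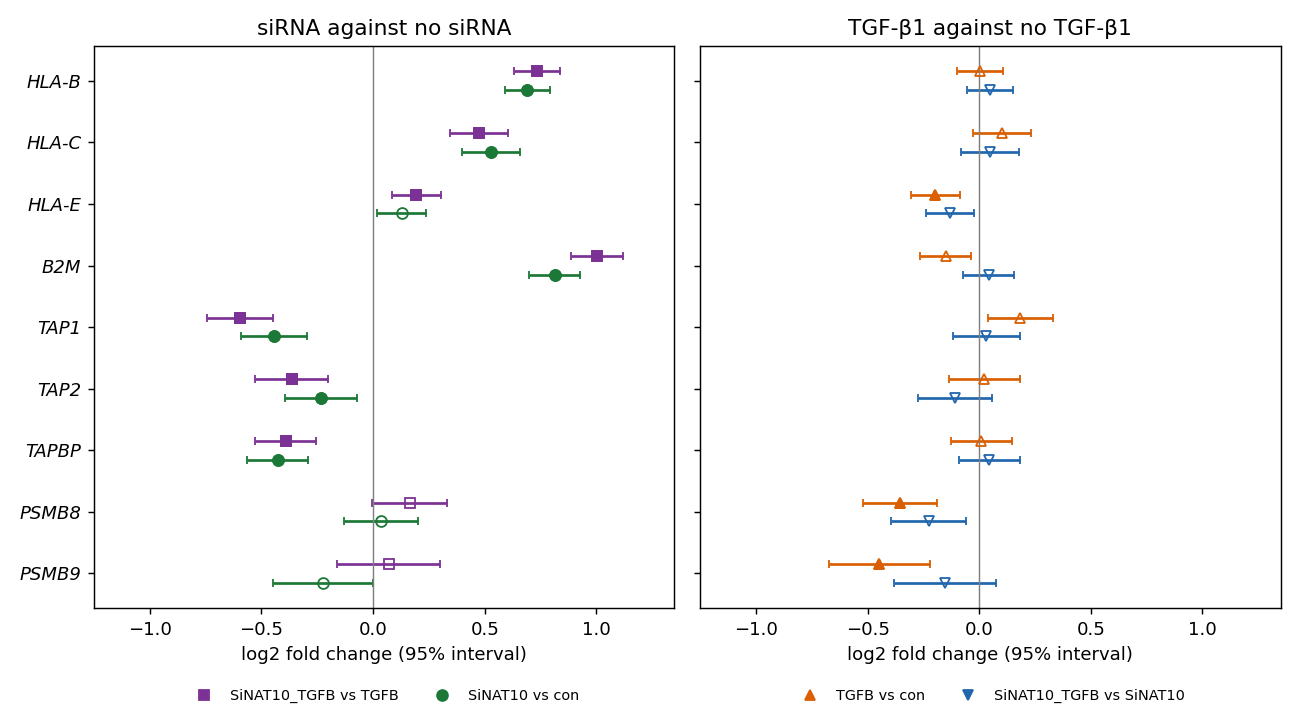
Log2 fold changes of the 9 genes with 95% intervals in 4 comparisons, with filled symbols at an adjusted p under 0.05. Left, the siRNA comparisons, where HLA-B, HLA-C and B2M lie above 0 and TAP1, TAP2 and TAPBP below it with or without TGF-β1. Right, the TGF-β1 comparisons, where HLA-E, PSMB8 and PSMB9 lie below 0 in TGFB against con and no symbol is filled in SiNAT10_TGFB against SiNAT10.

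The comparison of TGFB with con cells asks what TGF-β1 did without siRNA. PSMB8 and PSMB9, which passed in it, passed in neither siRNA comparison, while HLA-E also passed in SiNAT10_TGFB against TGFB, as higher. Both immunoproteasome subunits and HLA-E fell, and none of the 9 genes passed as higher, TAP1 being nearest at 0.19 on the log2 scale (adjusted p = 0.0757 by edgeR). Of all genes, 24.1% passed, 11.9% as higher and 12.2% as lower, against 0 higher and 3 lower among the 9 by edgeR. Groups did not overlap for 1 gene on the higher and 4 on the lower side, as for 19.9% and 20.8% of all genes. The median of the 9 genes was 0.00, against −0.01 for all genes. PSMB9 fell by 26.7%, a log2 change of −0.45 (SE 0.115, adjusted p = 0.00561 by edgeR). PSMB8 fell by 21.8%, a log2 change of −0.35 (SE 0.085, adjusted p = 0.00319). HLA-E fell by 12.7%, a log2 change of −0.20 (SE 0.055, adjusted p = 0.0106), and its call was lost without TGFB replicate 2 (−0.17, adjusted p = 0.0671).

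For HLA-B the TGF-β1 difference was 0.00 with a 95% interval of −0.10 to 0.10, and with library size alone as the scale it was −0.13 (adjusted p = 0.0394). That scale moves the median of all genes to −0.14 in this comparison. HLA-C differed by 0.10 (interval −0.03 to 0.23), TAP2 by 0.02 (−0.14 to 0.18) and TAPBP by 0.01 (−0.13 to 0.15). B2M, at −0.15 on the log2 scale, and TAP1, at 0.19, had groups that did not overlap and missed the threshold, with adjusted p-values of 0.0693 and 0.0757 by edgeR. B2M passed in 6 of 23 alternatives and TAP1 in 2, without SiNAT10 replicate 3 and with only the 2 groups fitted.

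With the siRNA present, SiNAT10_TGFB against SiNAT10 cells, 0 of the 9 genes passed by edgeR, and 11.1% of all genes passed, 5.92% as higher and 5.15% as lower. Groups did not overlap for 0 genes on the higher and 2 on the lower side, as for 11.5% and 11.8% of all genes. The 2 were PSMB8, with a log2 fold change of −0.23 (adjusted p = 0.102), and HLA-E, with one of −0.13 (adjusted p = 0.16). PSMB8 passed without SiNAT10_TGFB replicate 3 (−0.34, adjusted p = 0.0117 by edgeR), with library size alone (−0.29, 0.0255) and with the GC trend removed (−0.25, 0.0314). HLA-B, HLA-C, B2M, TAP1 and TAPBP each differed by less than 0.05 on the log2 scale, TAP2 by −0.11 and PSMB9 by −0.15. The median of the 9 genes was 0.03, against 0.00 for all genes. That TGF-β1 lowered PSMB8 and PSMB9 without siRNA and missed the threshold with it does not show a difference, since the interaction did not pass for either.

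The proportions within the pathway show the same values from another side, and were chosen with the changes of the genes known, so they carry no test. In deposited FPKM, TAP1 per unit of HLA-B was 0.0385, 0.0393 and 0.0393 in SiNAT10_TGFB cells, against 0.107, 0.0986 and 0.0896 in TGFB cells. In SiNAT10 cells it was 0.0401, 0.0423 and 0.0361, against 0.0868, 0.0859 and 0.0872 in con cells. HLA-B per unit of HLA-E was 3.07, 3.09 and 3.06 in SiNAT10_TGFB cells, 2.04, 2.2 and 2.1 in TGFB cells, 2.74, 2.7 and 2.72 in SiNAT10 cells, and 1.77, 1.87 and 1.88 in con cells. Transporter transcripts per heavy chain transcript were thus lower in every siRNA library, and the makeup of the heavy chains had more HLA-B. B2M per unit of the 3 heavy chains was 0.454 to 0.491 in SiNAT10_TGFB cells, against 0.336 to 0.361 in TGFB cells, and 0.43 to 0.513 in SiNAT10 cells, against 0.361 to 0.398 in con cells.

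For the proteasome, each interferon-inducible subunit was set against the constitutive subunit it replaces, in FPKM. PSMB8 over PSMB5 was 0.133, 0.135 and 0.128 in TGFB cells, against 0.182, 0.176 and 0.178 in con cells. PSMB9 over PSMB6 was 0.0629, 0.0647 and 0.0567 in TGFB cells, against 0.0918, 0.0813 and 0.0846 in con cells. Neither pair of groups overlapped, with TGFB on the low side. The third inducible subunit, PSMB10, over PSMB7 was 0.0743, 0.0627 and 0.0568 in SiNAT10_TGFB cells, against 0.0383, 0.0352 and 0.0315 in TGFB cells. In TGFB against con PSMB10 over PSMB7 was 0.865 times as high, with groups that overlapped. An exact two-sided permutation test of 3 against 3 libraries cannot go below p = 0.1. PSMB8 over PSMB5 reached this in TGFB against con and in SiNAT10_TGFB against SiNAT10, where it was 0.799 times as high. PSMB9 over PSMB6 reached it in TGFB against con, at 0.715 times, and in SiNAT10 against con, at 0.709 times. PSMB10 over PSMB7 reached it in SiNAT10_TGFB against TGFB and in SiNAT10 against con, where it was 1.7 times as high. Each of these had an adjusted p of 0.2 over the 12 ratio tests.

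**Figure D3:**
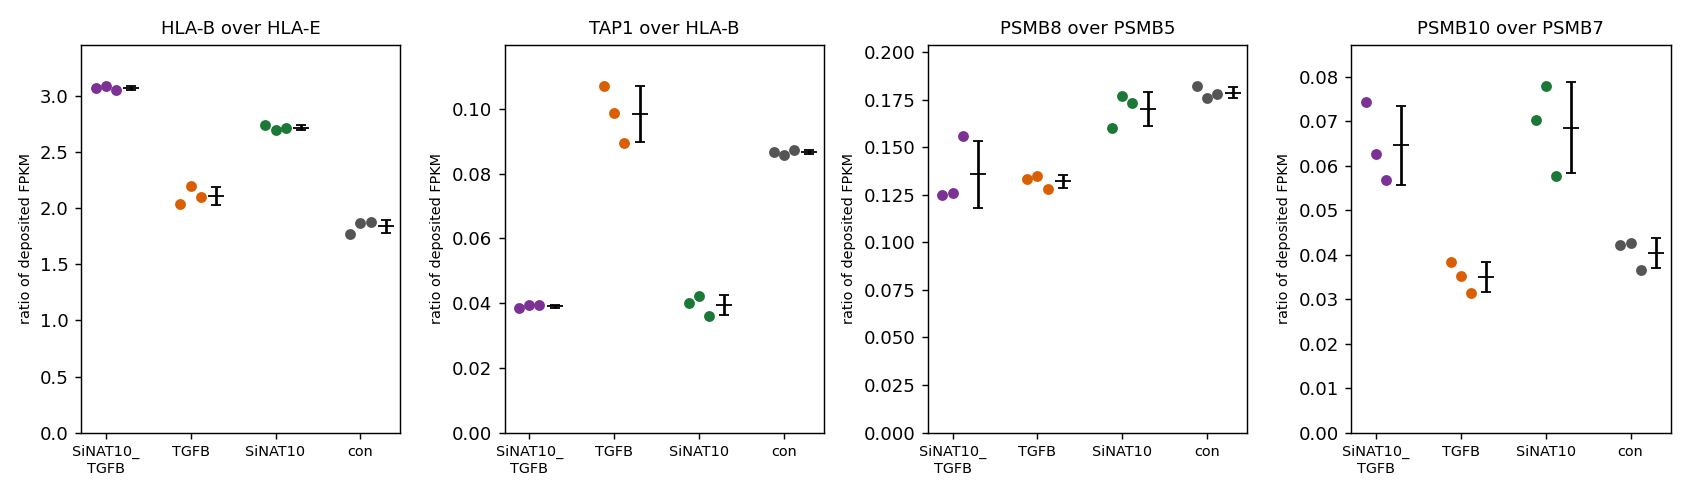
Ratios of deposited FPKM in each library, with the mean and SD of 3 libraries beside the points and axes from 0. HLA-B over HLA-E is higher and TAP1 over HLA-B lower in both siRNA groups, PSMB8 over PSMB5 is lower in TGFB than in con cells, and PSMB10 over PSMB7 is higher in both siRNA groups.

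Other genes of the pathway were taken from lists. Of the 3 further genes of peptide supply, the subunit PSMB10 and the proteasome activators PSME1 and PSME2, all 3 rose in SiNAT10_TGFB against TGFB and in SiNAT10 against con. Of all genes, 26.3% rose in the first of these comparisons and 26.4% in the second. PSMB10 averaged 7.37 ± 0.663 CPM in SiNAT10_TGFB cells and 4.27 ± 0.330 CPM in TGFB cells (log2 fold change 0.79, adjusted p = 7.04e-05 by edgeR). In SiNAT10 against con it changed by 0.69 (adjusted p = 0.000277), while PSME1 and PSME2 changed there by 0.17 and 0.18 and lost their calls with the GC trend removed. TGF-β1 lowered PSME1 in TGFB against con by 0.34 (adjusted p = 0.000821). Of the constitutive subunits PSMB5, PSMB6 and PSMB7, PSMB6 alone passed, at 0.27 in both siRNA comparisons, and with the GC trend removed PSMB7 also passed, as lower.

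Peptide trimming, in which aminopeptidases shorten peptides to the length that class I molecules hold, had 3 of 4 genes that rose with the siRNA in both comparisons, where 26.3% and 26.4% of all genes rose. ERAP2 stood at 79.7, 71.06 and 77.04 CPM in SiNAT10_TGFB cells, against 35.32, 38.27 and 33.35 CPM in TGFB cells (log2 fold change 1.09, SE 0.076, adjusted p = 2.71e-11 by edgeR). LNPEP, the aminopeptidase of endosomal cross-presentation, rose by 0.84, and ERAP1 by 0.51. In SiNAT10 against con the 3 rose by 0.88, 0.62 and 0.56. TPP2, which trims in the cytosol, changed by 0.15 (adjusted p = 0.0745) and 0.11 (adjusted p = 0.188). In TGFB against con, LNPEP fell by 0.45 (adjusted p = 7.57e-05 by edgeR) and ERAP2 fell by 0.30 (adjusted p = 0.00434).

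The 6 helpers of class I assembly split. BCAP31, which exports class I molecules from the endoplasmic reticulum, rose by 0.67 and 0.79 on the log2 scale in SiNAT10_TGFB against TGFB and in SiNAT10 against con, and the chaperone CANX (calnexin) by 0.54 and 0.62. CALR (calreticulin), the chaperone of the loading complex, had 875.9, 920.4 and 943.2 CPM in SiNAT10_TGFB cells, against 1363, 1296 and 1355 CPM in TGFB cells. It fell by 0.55 (adjusted p = 3.14e-09 by edgeR), and by 0.45 in SiNAT10 against con (adjusted p = 9.9e-08). UGGT1, which tests the folding of loaded molecules, fell by 0.20 and 0.19. In all, 2 of the 6 rose and 3 fell in SiNAT10_TGFB against TGFB, where 26.3% and 26.8% of all genes did. In SiNAT10 against con 2 rose and 2 fell, against 26.4% of all genes in each direction. TGF-β1 in TGFB against con raised CALR by 0.21 and PDIA3, the disulfide isomerase bound to tapasin, by 0.27.

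Among 8 other class I and class I-like heavy chains, 6 had enough counts. MR1, which presents vitamin metabolites to MAIT cells, averaged 16.0 ± 0.829 CPM in SiNAT10_TGFB cells and 7.96 ± 0.558 CPM in TGFB cells (log2 fold change 1.01, adjusted p = 1.25e-07 by edgeR), and rose by 0.75 in SiNAT10 against con. MICB, a ligand of the receptor NKG2D, rose by 0.27 and 0.25, the second of which was lost with the GC trend removed. HLA-F fell by 0.42 in SiNAT10_TGFB against TGFB (adjusted p = 0.00208), with that call lost when the GC trend was removed (−0.19, adjusted p = 0.0896). In SiNAT10 against con HLA-F did not pass, but with the GC trend removed it passed as higher (0.28, adjusted p = 0.0141 by edgeR). In SiNAT10 against con, HFE, which controls iron uptake, fell by 0.66, and FCGRT, the neonatal Fc receptor, fell by 0.28, a call lost with the GC trend removed. In SiNAT10_TGFB against TGFB with that trend removed, FCGRT passed as higher (0.335, adjusted p = 0.00698 by edgeR) and HFE as lower (−0.411, 0.0225). HLA-G had 0 counts in every library. MICA, also an NKG2D ligand, rose with TGF-β1 by 0.50 without siRNA and by 0.29 with it.

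**Figure D4:**
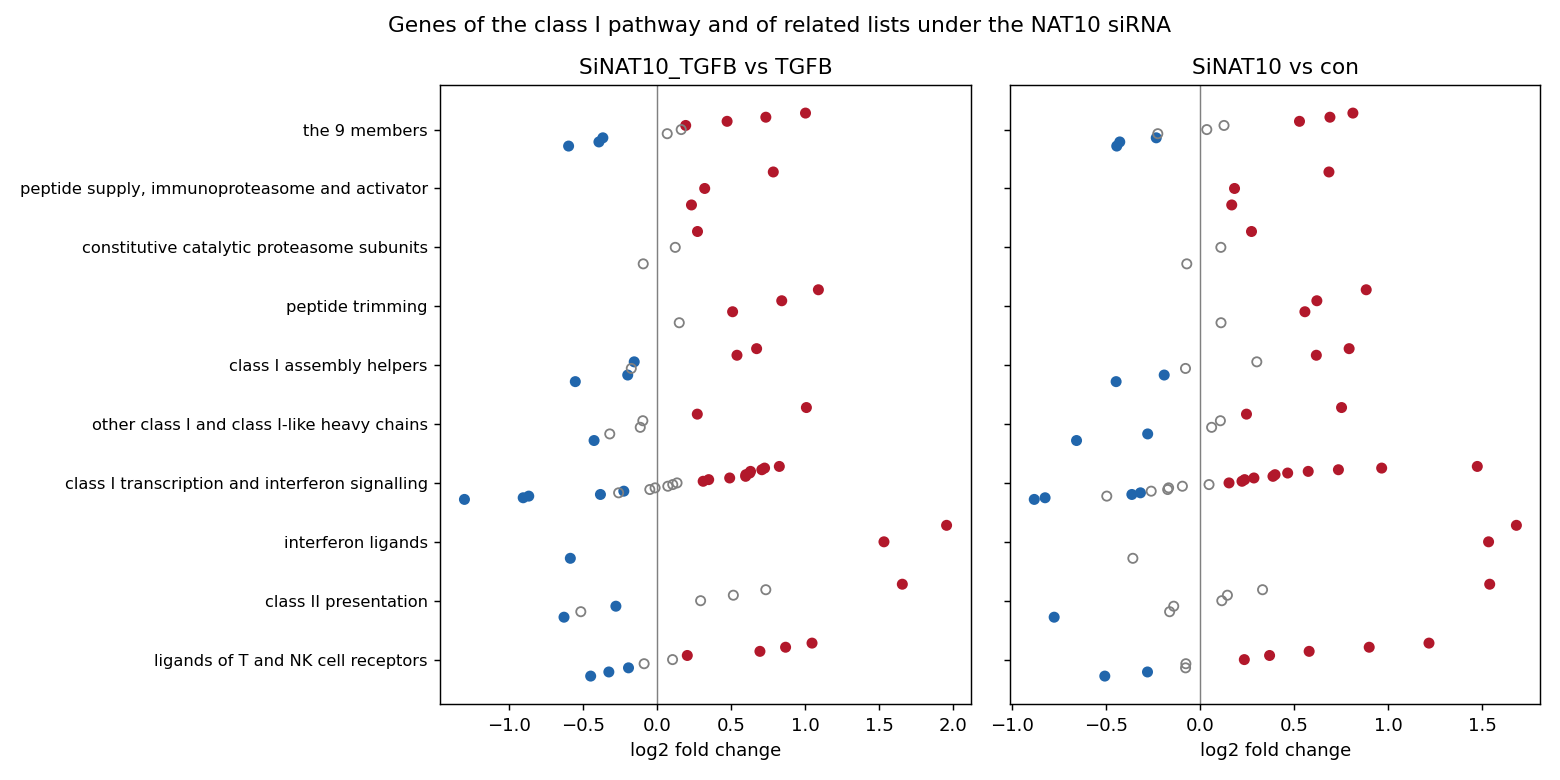
Log2 fold changes of the genes of each list in SiNAT10_TGFB against TGFB (left) and SiNAT10 against con (right), 1 point per gene tested, filled at an adjusted p under 0.05 (red higher, blue lower) and open where it missed. HLA-DOA, near 0 counts in con and TGFB, is left out. All 3 points of peptide supply and 3 of 4 points of trimming are red in both panels, while the 9 genes and the assembly helpers hold both colours. Of all genes tested, 26.3% (left) and 26.4% (right) passed as higher.

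Of 21 genes of class I transcription and interferon signalling, 10 rose and 5 fell in SiNAT10_TGFB against TGFB, where 26.3% and 26.8% of all genes did. In SiNAT10 against con 11 rose and 4 fell, against 26.4% of all genes in each direction. NLRC5 fell most in the first of these comparisons. It stood at 46.53, 46.38 and 43.28 CPM in SiNAT10_TGFB cells, against 110.2, 105.2 and 119.9 CPM in TGFB cells, a log2 change of −1.30 (SE 0.078, adjusted p = 2.44e-12 by edgeR). In SiNAT10 cells it stood at 42.54, 42.1 and 35.01 CPM, against 70.46, 77.62 and 72.49 CPM in con cells, a log2 change of −0.88 (SE 0.079, adjusted p = 2.27e-09). The known transactivator of class I promoters was thus lower in the siRNA libraries, where HLA-B, HLA-C and B2M were higher and TAP1 lower. The part of NLRC5 in the levels of these genes was not tested. With the GC trend removed NLRC5 still fell, by 1.10 and 0.70. TGF-β1 raised NLRC5 in TGFB against con by 0.60 (adjusted p = 1.58e-06).

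Other genes of the list moved in both directions under the siRNA. IRF1, which binds the interferon element, had 39.45, 42.54 and 43.25 CPM in SiNAT10_TGFB cells, against 24.95, 22.83 and 22.78 CPM in TGFB cells (log2 fold change 0.83, adjusted p = 1.69e-08 by edgeR). It rose by 0.97 in SiNAT10 against con (adjusted p = 1.59e-09). STAT3 rose by 0.71 and 0.74 in SiNAT10_TGFB against TGFB and in SiNAT10 against con, and the kinase JAK1 by 0.63 in SiNAT10_TGFB against TGFB, whereas the kinase TYK2 fell by 0.90 and 0.82. IRF9, which joins STAT2 in the type I interferon signal, fell by 0.87 in SiNAT10_TGFB against TGFB (adjusted p = 0.00604 by edgeR) with means of 1.66 CPM in SiNAT10_TGFB cells and 3.04 CPM in TGFB cells, and its −0.50 in SiNAT10 against con did not pass (adjusted p = 0.108). In TGFB against con, STAT2, which carries the type I interferon signal, fell by 0.37. IFNB1 had 0.8328, 1.804 and 1.05 CPM in SiNAT10_TGFB cells, against 0.741, 0.3728 and 0.135 CPM in TGFB cells, and IFNL1 0.7981, 1.574 and 1.847 CPM, against 0.247, 0.6524 and 0.1688 CPM. IFNB1 and IFNL1 passed in both siRNA comparisons, at levels of 2 CPM or less and with counts down to 4 in a library. Of the 3 interferon genes tested, 2 rose and 1 fell in SiNAT10_TGFB against TGFB, where 26.3% and 26.8% of all genes did. In SiNAT10 against con 2 rose and 0 fell, against 26.4% of all genes in each direction. In TGFB against con 1 rose and 0 fell, against 11.9% and 12.2% of all genes. IFNG had 0 counts in every library.

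Of 13 genes of class II presentation, 8 had enough counts. HLA-DPB1 averaged 19.3 to 23.4 CPM over the 4 groups and HLA-DPA1 8.03 to 10.0 CPM, while HLA-DRA had at most 2 counts in any library. Of the 8, 2 rose and 2 fell in SiNAT10_TGFB against TGFB, where 26.3% and 26.8% of all genes did. In SiNAT10 against con 2 rose and 1 fell, against 26.4% of all genes in each direction. HLA-DOA, 1 of the class II genes that rose, averaged 0.873 CPM in SiNAT10_TGFB cells and 0.0432 CPM in TGFB cells. It averaged 0.478 CPM in SiNAT10 cells and 0.0194 CPM in con cells. CTSS, the protease that trims the class II invariant chain, rose by 1.66 in SiNAT10_TGFB against TGFB and by 1.54 in SiNAT10 against con, and HLA-DMA fell by 0.63 and 0.78 at under 3 CPM. Of 9 tested ligands of T cell and natural killer cell receptors, 4 rose and 3 fell in SiNAT10_TGFB against TGFB, where 26.3% and 26.8% of all genes did. In SiNAT10 against con 5 rose and 2 fell, against 26.4% of all genes in each direction. With the GC trend removed, 5 ligands were higher and 0 lower in the first comparison, and 7 higher and 1 lower in the second. With that setting 10016 of 18552 genes passed in the first and 10052 in the second, both directions together. Of the ligands that had fallen, CD276 in the first comparison and NECTIN2 in the second passed as higher. CD274, which encodes PD-L1, had 53.51, 50.79 and 53.83 CPM in SiNAT10_TGFB cells, against 29.79, 31.13 and 25.58 CPM in TGFB cells (log2 fold change 0.87, adjusted p = 6.21e-09 by edgeR). PDCD1LG2, for PD-L2, rose by 1.05, and both rose in SiNAT10 against con, by 0.90 and 1.22. PVR, a ligand of DNAM-1 and TIGIT, rose with TGF-β1, by 0.87 without siRNA and by 0.74 with it.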

How the data were processed

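Gene counts and FPKM of 58735 genes in 12 libraries were deposited. Per the submitters' processing notes, the authors cleaned reads with fastp and aligned them with HISAT2 2.2.1 to hg38 to make the deposited counts. Neither the counting tool nor the annotation or strand setting is given in the sources used here. Gene positions equal those of GENCODE release 29 for all 58735 genes. The authors' deposited FPKM are the counts per length and total, times a constant for each library (0.9334 to 1.0879), and served for ratios and as an alternative.

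The test was edgeR 4.0.16 in R 4.3.3. Its filterByExpr kept 18560 genes, libraries were scaled by TMM, and 1 quasi-likelihood fit of 4 group means over 12 libraries gave 4 contrasts and an interaction term, with p-values adjusted by Benjamini-Hochberg across the table, with calls at an adjusted p under 0.05. The SE is the absolute log2 fold change divided by the square root of F. No 2 libraries were duplicates: counts of replicate pairs differed with a chi-square per degree of freedom of 3.96 to 18. The CPM of 3 counts, 0.0871 to 0.115, bounds the precision of low values. The pipeline was tested on simulated data.

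The 9 genes and the lists were chosen with earlier results of these data known. All 9 genes are named in each comparison, and from each list at most 4 tested genes per contrast with the smallest p. Values of 1 list gene are not reported here. List genes outside that rule, the levels of HLA-G, IFNG, HLA-DRA and DES and the ratios without a test were chosen after their values were seen. Alternatives were other scalings, no filter, DESeq2 1.42.0, limma 3.58.1 (voom, and FPKM on the log2 scale with pseudocounts of 1 and 0.1), a GC offset, fits of 2 groups, a replicate block, omission of each library and, added after seeing the data, summed counts of overlapping genes. Promoter windows are from RefSeq (GRCh38.p14).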

Additional observations from a re-analysis of the deposited data

Results flagged for a closer look

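STAT2 was marked for a closer look because the siRNA effect differed with TGF-β1 and without it. The interaction was 0.3764 on the log2 scale (SE 0.099, adjusted p = 0.0298 by edgeR's quasi-likelihood test over all genes). STAT2, which carries the type I interferon signal, stood at 92.86, 89.76 and 90.19 CPM in SiNAT10_TGFB cells, against 62.77, 54.89 and 62.41 CPM in TGFB cells. In SiNAT10 cells it stood at 95.76, 93.98 and 82.58 CPM, against 78.57, 78.52 and 76.21 CPM in con cells. Both siRNA groups were thus at about one level, and TGFB cells were below con cells.

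NLRC5 was marked by the same test in the other direction, with an interaction of −0.4178 (SE 0.110, adjusted p = 0.0306 by edgeR). With the GC trend removed the interaction was −0.41 (adjusted p = 0.000909). The decrease with siRNA was larger with TGF-β1 than without it, and the NLRC5 level in TGFB cells was the highest of the 4 groups.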

How the results depend on the processing

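HLA-B, HLA-C, B2M and TAP1 kept their direction and call in both siRNA comparisons under all 23 alternatives run for each, with log2 fold changes in SiNAT10_TGFB against TGFB of 0.71 to 1.10, 0.45 to 0.92, 0.82 to 1.13 and −0.65 to −0.47. HLA-E and TAP2 did so in SiNAT10_TGFB against TGFB and not in SiNAT10 against con, and PSMB8 and PSMB9 did so in TGFB against con. TAPBP turned with the GC trend removed, to 0.06829 in SiNAT10_TGFB against TGFB and 0.01793 in SiNAT10 against con. With library size alone as the scale, HLA-B in TGFB against con turned to −0.1322, 5 of the 9 genes were lower in TGFB against con and 2 in SiNAT10_TGFB against SiNAT10. On that scale more of all genes passed too, 6033 against 4472 in TGFB against con. In SiNAT10_TGFB against SiNAT10 these were 2386 against 2054. With the GC trend removed, 1 gene, PSMB8, was lower in SiNAT10_TGFB against SiNAT10, where 2928 of all genes passed, against 2054. In that fit 1391 of all genes passed the interaction, against 714. Fitting only the 2 groups, 1 gene, TAP1, was higher in TGFB against con, where 5383 of all genes passed, against 4472. Leaving out each library, genes of the 9 called higher ranged from 0 to 1 in TGFB against con and in the interaction, and those called lower from 0 to 1 in SiNAT10_TGFB against SiNAT10, from 2 to 4 in TGFB against con and from 2 to 4 in SiNAT10 against con. Of all genes, 3572 to 5008 then passed in TGFB against con and 8740 to 9877 in SiNAT10 against con. In SiNAT10_TGFB against SiNAT10 it was 1556 to 2112, and in the interaction 513 to 970. The cause of these changes was not tested.

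Replicate numbers did not pair the samples: deviations of the 18 same-numbered pairs correlated at −0.0729 to 0.0485. A replicate block gave 9579 genes called in SiNAT10_TGFB against TGFB, 9459 in SiNAT10 against con, 4113 in TGFB against con, 1806 in SiNAT10_TGFB against SiNAT10 and 591 in the interaction, and changed no call of the 9 genes. Depth limits IFNB1 and IFNL1, and of the 9 genes most of all PSMB9, which had the fewest counts.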

Other observations

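The 8 genes whose log2 CPM over the 12 libraries was most like the mean z-score of the 9 genes, among 13034 others with a mean of 50 counts or more, were CYB5A (Pearson r 0.90), CYFIP2 (0.898), IGFBP6 (0.893), ACBD7 (0.889), SGK3 (0.886), DRAP1 (0.877), DTNBP1 (0.876) and WLS (0.875). The mean joins genes that moved in opposite directions. Of single genes, chosen after their values were seen, ISG15, an interferon-induced ubiquitin-like protein, was among the 8 most like HLA-B (0.994), IRF1 among the 8 most like HLA-C (0.983), and IFI35, also interferon-induced, among the 8 most like HLA-E (0.955). These coefficients rest mostly on differences between 4 group means and are given as a description.

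SOCS1, an inhibitor of interferon signalling, had the largest rise of the 21 genes of class I transcription and signalling in SiNAT10 against con, at 8.06 ± 1.67 CPM in SiNAT10 cells and 2.89 ± 0.631 CPM in con cells (SD, n = 3; log2 fold change 1.48, SE 0.189, adjusted p = 6.3e-07 by edgeR). It was chosen after its values were seen.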
